A study of Mus musculus with 15 samples.

Results

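Chemokines are small secreted proteins that guide leukocytes along gradients by binding G protein-coupled receptors. Atypical chemokine receptors bind the same ligands without coupling to G proteins and take them up or transport them, so that a cell can make a chemokine, remove it, or do both. Stromal cells of many tissues produce such ligands, and those of fat and lung are known as sources of signals for eosinophils, monocytes and lymphocytes.

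The chemokine genes Ccl2, Ccl7, Ccl11, Cxcl1, Cxcl12, Cxcl13, Cxcl14 and Cxcl16 and the atypical receptor genes Ackr3 and Ackr4 were followed across 5 sorted mouse populations. These 10 genes were chosen by symbol, and all 10 were found among the 10222 gene symbols of the deposited list, where they account for 13 transcripts. Values are RPKM, read counts scaled to transcript length and library size, summed over the transcripts of a symbol.

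The cells came from C57BL/6 mice heterozygous for an Il33-citrine reporter, an allele that all groups share, and RNA from 3 separately sorted libraries of each population was amplified and sequenced. Il33+ WAT-MSC were PDGFRα+CD34+Sca1+podoplanin+ stromal cells from mesenteric white adipose tissue (WAT) that carried citrine, and Il33- WAT-MSC were the cells of the same gate without it. Lung Il33+ MSC were citrine+ stromal cells from lung, WAT endothelial cells were sorted as CD31+, and lung epithelial cells as EpCAM+. No group was treated, and the age and sex of the mice are not given in the sources used here. The replicates are described as independent experiments, and p-values measure the spread between these libraries.

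Alignments ranged from 42711843 to 60773158 per library, so that 1 RPKM stands for 42.7 to 60.8 alignments per kilobase. Il33 itself ran from 38.7 to 78.5 RPKM in the citrine+ cells of fat and from 4.31 to 6.76 RPKM in the citrine- cells, in the order of the sort. All 8 endothelial markers and all 7 stromal markers of the lists used were present, but the stromal markers were high in more than the stromal gates. Their summed level was 4643 to 6146 RPKM in Il33+ WAT-MSC, 3681 to 4870 RPKM in Il33- WAT-MSC, 5971 to 7555 RPKM in lung Il33+ MSC, 1561 to 3139 RPKM in WAT endothelial cells and 78.9 to 150.2 RPKM in lung epithelial cells. The 8 endothelial markers summed to 477 to 528 RPKM in WAT endothelial cells and to 2.93 to 28.4 RPKM in both WAT-MSC populations. In the epithelial libraries the secretoglobin Scgb1a1 alone made up 57.7 to 62.9% of all RPKM. These are bulk libraries, in which fewer cells of a type and less RNA per cell cannot be told apart.

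Ccl2, Ccl7 and Ccl11 lie side by side on chromosome 11, at chr11:82035577-82037452, chr11:82045712-82047525 and chr11:82057832-82062955 (RefSeq, GRCm38.p6), with 8259 bases between the first pair and 10306 bases between the second. Cxcl1 lies at chr5:90891245-90893121, Cxcl13 at chr5:95956939-95961068, Cxcl12 at chr6:117168535-117181368, Cxcl14 at chr13:56288643-56296811 and Cxcl16 at chr11:70454389-70459984. Ackr3 lies at chr1:90203980-90215724 and Ackr4 at chr9:104097682-104126643.

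Sequence bears on the results for Cxcl12, whose 3 listed transcripts share 267 coding bases and then end in different exons. The coding ends are shown from the last 15 shared bases, 5′ to 3′ on the plus strand of chromosome 6, with the bases particular to each transcript, stop codon included, in capitals (GENCODE vM21 transcripts).
NM_021704: aaagctttaaacaagTAA
NM_013655: aaagctttaaacaagAGGCTCAAGATGTGA
NM_001012477: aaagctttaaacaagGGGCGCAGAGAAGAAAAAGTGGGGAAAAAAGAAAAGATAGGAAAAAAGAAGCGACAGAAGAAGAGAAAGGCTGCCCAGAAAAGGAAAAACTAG
They encode proteins of 89, 93 and 119 codons, known as Cxcl12 alpha, beta and gamma, and the added basic tail of the gamma form is known for tight binding to heparan sulphate. NM_021704 ends in an exon at chr6:117173492-117175069 and NM_013655 in one at chr6:117178583-117181366. All 2784 bases of the latter also lie in the last exon of NM_001012477 at chr6:117176086-117181367, so reads there had to be divided between these transcripts by the authors' quantification, and their separate levels are less certain than that of NM_021704.

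The bases before the start site are shown for Cxcl1, which had the highest mean RPKM of these 8 ligands in 4 of the 5 populations, and for Cxcl13 and Ackr4, which differed most between fat and lung stroma. Each run covers the 250 bases upstream of the RefSeq start site (GRCm38.p6) in the direction of transcription, with matches to 3 motifs in capitals: GGGANNNNCC, an NF-kB form, TTCNNNNGAA, a STAT6-type site, and TATAAA, searched on both strands.
Cxcl1, chr5:90890995-90891244, plus strand: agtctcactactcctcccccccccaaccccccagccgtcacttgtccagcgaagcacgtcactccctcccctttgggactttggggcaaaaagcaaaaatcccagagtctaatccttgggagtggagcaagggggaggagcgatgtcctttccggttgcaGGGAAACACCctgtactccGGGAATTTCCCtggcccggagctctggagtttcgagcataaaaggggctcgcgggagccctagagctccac
Cxcl13, chr5:95956689-95956938, plus strand: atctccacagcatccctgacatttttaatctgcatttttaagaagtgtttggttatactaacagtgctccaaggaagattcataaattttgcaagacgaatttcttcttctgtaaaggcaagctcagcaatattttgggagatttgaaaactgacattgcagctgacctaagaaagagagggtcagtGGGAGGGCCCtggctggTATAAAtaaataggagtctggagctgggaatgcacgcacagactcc
Ackr4, chr9:104126644-104126893, minus strand: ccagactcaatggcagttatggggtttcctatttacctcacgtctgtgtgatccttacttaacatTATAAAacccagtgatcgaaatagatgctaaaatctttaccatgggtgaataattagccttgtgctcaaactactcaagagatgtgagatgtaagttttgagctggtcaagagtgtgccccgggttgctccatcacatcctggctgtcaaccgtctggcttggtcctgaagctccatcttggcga
Upstream of Cxcl1, the NF-kB form matched 90 and 71 bases before the start site, and the second match overlaps one on the other strand by all but a single base. Upstream of Cxcl13 it matched 63 bases before the start site, with a TATA box 46 bases before it. The NF-kB form occurs in 20.7% of all 32851 promoters of 300 bases in the table, the TATA box in 13.6% and the STAT6-type site in 6.95%. Promoters of 6 of the 10 genes were matched in the table, and none of these held the STAT6-type letters in its 300 bases. Those of Ccl2, Ccl7, Ccl11 and Cxcl16 were not matched, so they were not searched for any of the motifs.

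Among the inflammatory CC ligands, Ccl11, eotaxin-1, which attracts eosinophils through Ccr3, was highest in Il33- WAT-MSC with 652, 1212 and 861 RPKM (mean 908 ± 283, SD, n = 3), where its mean ranked 15th of all symbols. It was at 297, 570 and 431 RPKM in Il33+ WAT-MSC, at 283, 270 and 412 RPKM in lung Il33+ MSC, at 87.2, 148 and 175 RPKM in WAT endothelial cells, and at 7.17, 3.10 and 6.63 RPKM in lung epithelial cells. The Il33- libraries lay above all the others, and Il33+ WAT-MSC and lung Il33+ MSC overlapped.

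Ccl2, which attracts monocytes through Ccr2, had 127, 370 and 139 RPKM in the citrine+ fat stroma and 74.3, 257 and 116 RPKM in the citrine- fat stroma. WAT endothelial cells had 32.8, 126 and 88.7 RPKM, lung Il33+ MSC 38.3, 63.5 and 129 RPKM, and lung epithelial cells 1.86 to 3.80 RPKM. Each neighbouring pair in this order of means overlapped except the last, between lung stroma and lung epithelium.

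Ccl7, a related monocyte attractant that also binds Ccr3, followed Ccl2 closely. Il33+ WAT-MSC had 81.8, 145 and 78.1 RPKM of it, and the Il33- cells had 36.1, 159 and 105 RPKM. In lung Il33+ MSC it was at 37.0, 39.6 and 81.7 RPKM, in WAT endothelial cells at 10.4, 84.0 and 38.7 RPKM, and in lung epithelial cells at 0.75 to 1.42 RPKM. As for Ccl2, only the epithelial libraries stood clear of the population next in order.

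Cxcl1, a neutrophil attractant that acts through Cxcr2, reached 562, 1210 and 826 RPKM in the Il33+ cells of fat, 617, 722 and 750 RPKM in their Il33- counterparts and 614, 561 and 904 RPKM in lung stroma. These 3 stromal populations overlapped, and the mean of Cxcl1 ranked 20th to 29th of all symbols in them. WAT endothelial cells had 472, 334 and 296 RPKM, below every stromal library, and lung epithelial cells had 20.1, 11.2 and 21.5 RPKM.

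**Figure D1:**
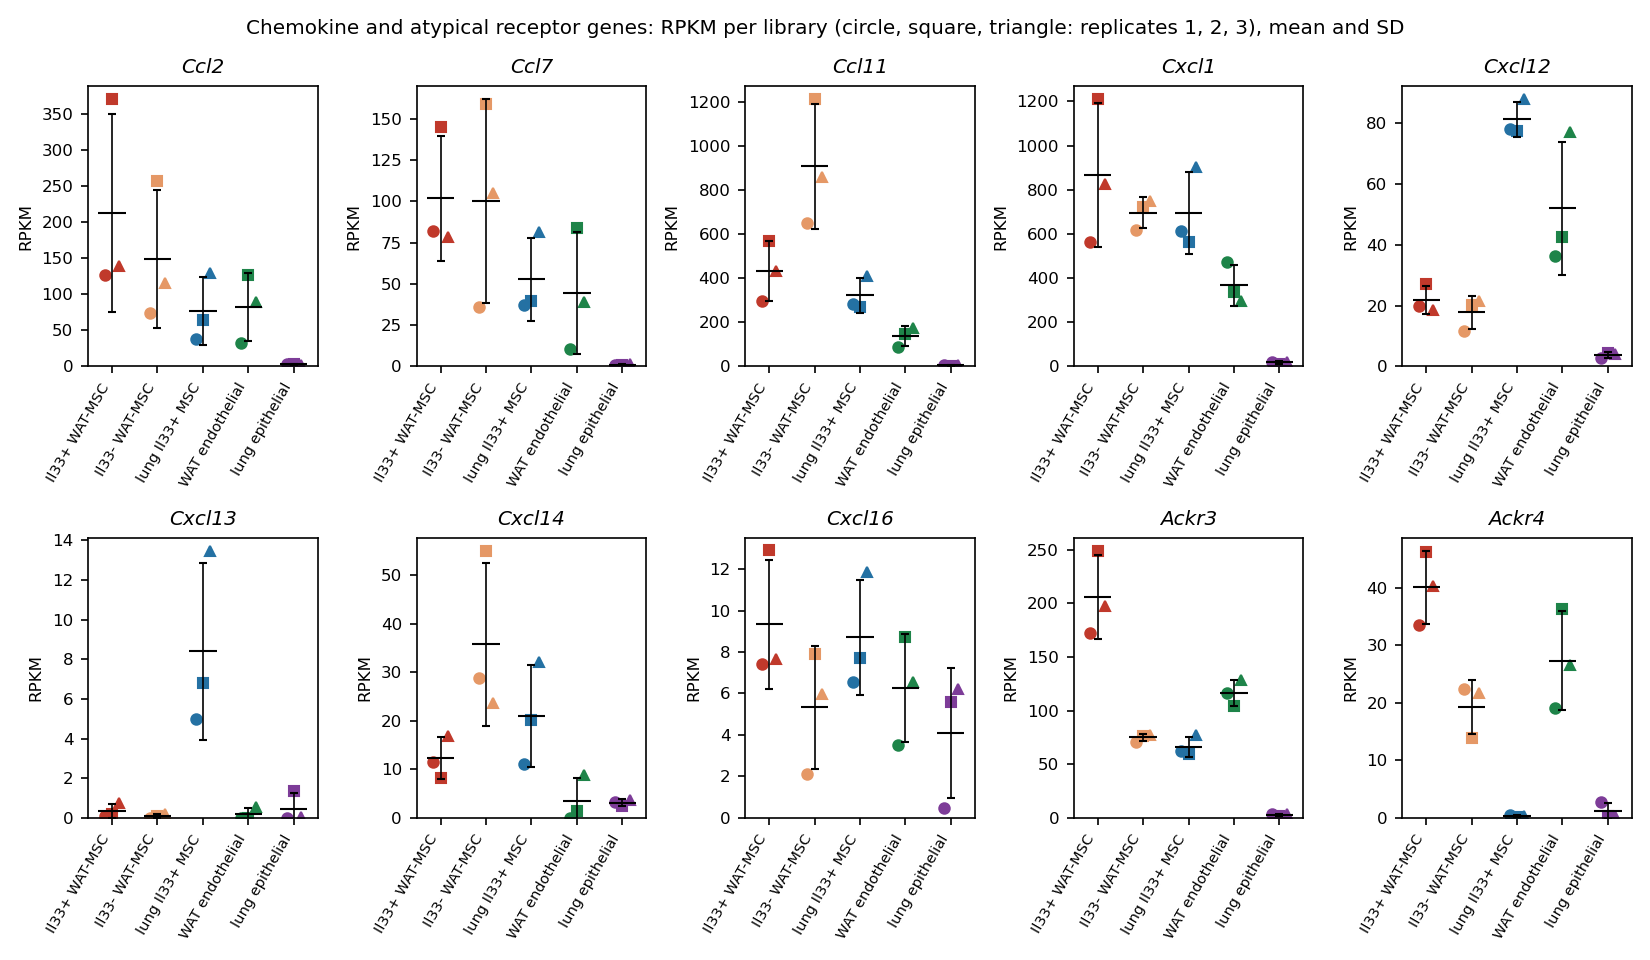
RPKM (vertical axes, linear, from 0) of the 10 genes in the 5 populations, with a point for each library, a bar for the mean and error bars for the SD of 3 libraries. Ccl11 is highest in the Il33- WAT-MSC libraries, Ackr3 and Ackr4 have their highest means in Il33+ WAT-MSC, and Cxcl13 reaches 4.98 to 13.5 RPKM in lung Il33+ MSC against at most 1.35 RPKM in any other library.

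Of the other CXC ligands, Cxcl12, which retains and recruits cells that carry Cxcr4, was at 78.2, 77.6 and 87.97 RPKM in lung Il33+ MSC, the population with the smallest relative spread for it (81.2 ± 5.83, SD, n = 3). It was at 36.4, 42.6 and 77.1 RPKM in WAT endothelial cells, at 19.9, 27.1 and 18.5 RPKM in the citrine+ WAT-MSC, at 11.5, 20.3 and 21.5 RPKM in the citrine- ones and at 2.69 to 4.47 RPKM in lung epithelial cells. The WAT-MSC populations overlapped each other, and every other neighbouring pair in this order was separate.

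Cxcl13, a B cell attractant that acts through Cxcr5, was at 4.98, 6.78 and 13.5 RPKM in lung Il33+ MSC. No other library exceeded 1.35 RPKM, an epithelial library, and it was listed at 0 in 4 libraries of the other populations. Cxcl14 was highest in Il33- WAT-MSC at 28.8, 55.0 and 23.6 RPKM, followed by lung Il33+ MSC at 11.02, 20.1 and 32.0 RPKM and Il33+ WAT-MSC at 11.6, 8.30 and 16.9 RPKM. In WAT endothelial cells it was at 0.03, 1.41 and 8.78 RPKM, and in lung epithelial cells it was at 2.43 to 3.72 RPKM. Cxcl16, a membrane-bound ligand of Cxcr6, was low throughout, between 0.46 and 12.9 RPKM, and every neighbouring pair of populations overlapped.

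Ackr3, which scavenges Cxcl12, was at 172, 249.2 and 197 RPKM in the Il33+ cells of fat (206 ± 39.3, SD, n = 3). It was at 116, 104 and 128 RPKM in WAT endothelial cells, at 71.0, 76.7 and 77.2 RPKM in Il33- WAT-MSC, at 62.6, 59.2 and 76.9 RPKM in lung Il33+ MSC and at 1.55 to 3.82 RPKM in lung epithelial cells. The Il33+ WAT-MSC and the endothelial libraries each stood apart, whereas the last 2 stromal populations overlapped. Ackr4, which scavenges Ccl19, Ccl21 and Ccl25, was at 33.6, 46.3 and 40.3 RPKM in Il33+ WAT-MSC, at 19.2, 36.3 and 26.5 RPKM in WAT endothelial cells and at 22.4, 13.8 and 21.6 RPKM in Il33- WAT-MSC. All libraries of WAT held it at 13.8 RPKM or more, and no lung library exceeded 2.70 RPKM. In lung Il33+ MSC it was at 0.40, 0.18 and 0.30 RPKM.

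Over all 10 genes, the highest mean was in Il33+ WAT-MSC for 6 genes, in Il33- WAT-MSC for 2 and in lung Il33+ MSC for 2, and the lowest was in lung epithelial cells for 8. Of the 40 neighbouring pairs in these orders, 25 overlapped. The same count was not made over all genes, so it only describes these 10.

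The comparison of Il33+ with Il33- WAT-MSC asks whether citrine divides the fat stroma by its chemokine programme. Ackr3 was higher in Il33+ WAT-MSC by 1.43 on the log2(RPKM + 1) scale, on which all fold changes are given (standard error, SE, 0.22, adjusted p = 0.00861, limma with Benjamini-Hochberg adjustment), and the 3 libraries of each side did not overlap. Ackr3 was the only gene of the 9 tested to pass, beside 1.57% of all genes tested (0.923% called higher and 0.651% called lower), and Cxcl13 was too low to be tested. The libraries did not overlap for 4 of the 9, Ackr3, Ackr4, Ccl11 and Cxcl14, beside 17.5% of all genes.

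For the remaining 3 of these the difference did not pass. Ackr4 differed by 1.04 on the log2 scale (SE 0.26, adjusted p = 0.0865), Ccl11 by -1.07 (SE 0.31, adjusted p = 0.164) and Cxcl14 by -1.43 (SE 0.35, adjusted p = 0.0783). With median-ratio scaling Cxcl14 passed (adjusted p = 0.0474, limma). With the replicate number as a block, both Ccl11 and Cxcl14 passed (adjusted p = 0.0118 and 0.049, limma). Ackr1, which binds many inflammatory chemokines and is known from venules and erythroid cells, was also higher in Il33+ WAT-MSC, at 32.2, 44.0 and 50.4 RPKM against 5.09, 11.05 and 15.3 RPKM, a difference of 2.00 on the log2 scale (SE 0.35, adjusted p = 0.0166). The 8 endothelial markers were at a median of 2.37% of their endothelial level in Il33+ WAT-MSC and 1.07% in Il33- WAT-MSC, and the mean of Ackr1 in the endothelial cells was 35.6 RPKM. Markers of mesothelial cells summed to 39.3, 104 and 127 RPKM in Il33+ WAT-MSC and to 23.65, 36.9 and 21.5 RPKM in Il33- WAT-MSC. The part of endothelial RNA in the difference of Ackr1, and of mesothelial RNA in those of Ackr1 and Ackr3, was not tested. Without replicate 2 or 3 of Il33+ WAT-MSC the adjusted p of Ackr1 was 0.0716 or 0.0895, and without a filter on low values it was 0.132 for Ackr1 and 0.0559 for Ackr3.

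**Figure D2:**
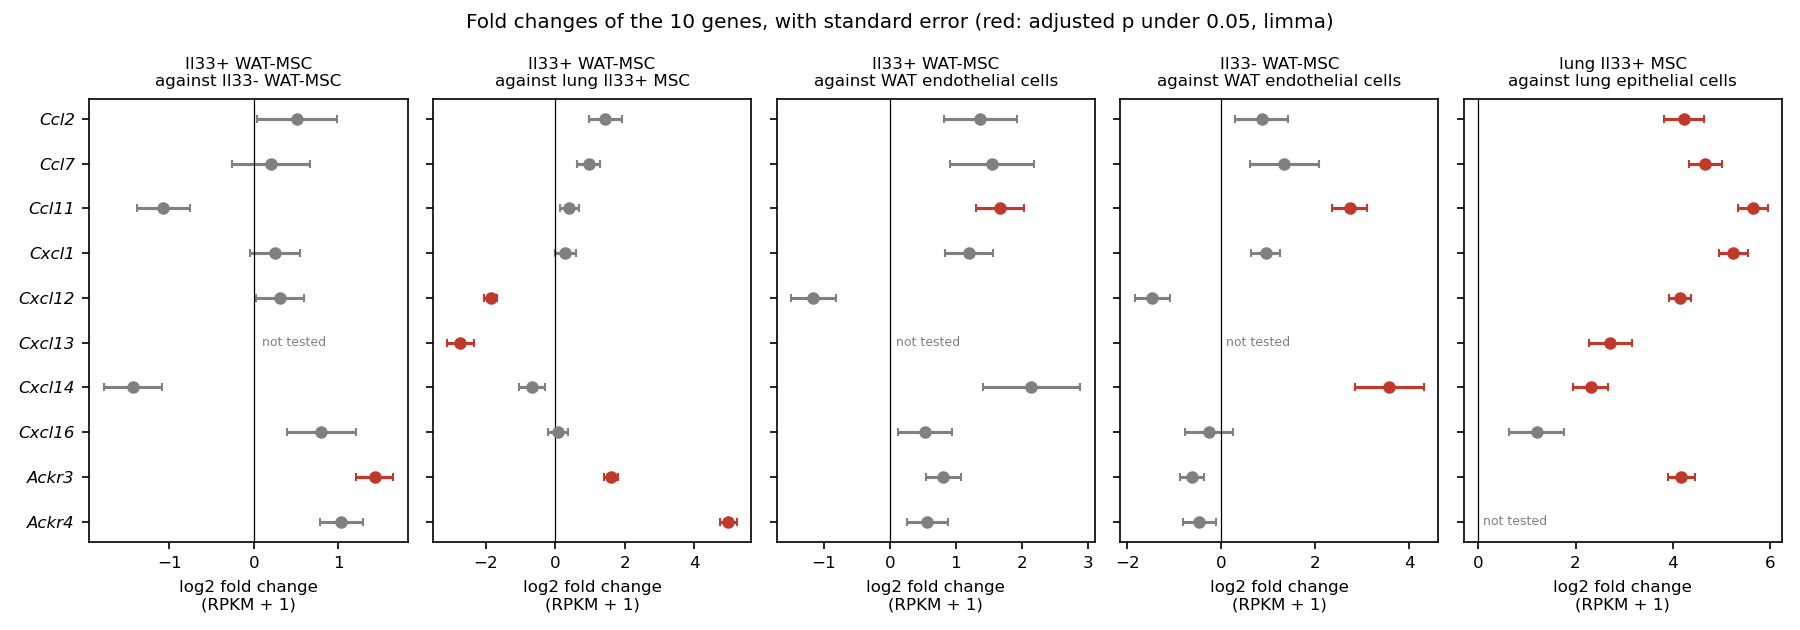
Log2 fold change on the log2(RPKM + 1) scale (horizontal axes, a scale of its own in each panel) of the 10 genes in the 5 comparisons, with the standard error, positive where the population named first is higher. Red points passed an adjusted p of 0.05 in limma: Ackr3 in the first panel, 4 genes in the second, Ccl11 in the third, Ccl11 and Cxcl14 in the fourth and 8 genes in the fifth.

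Between fat and lung stroma the 2 atypical receptors and 2 homeostatic ligands went opposite ways. Ackr4 was higher in Il33+ WAT-MSC than in lung Il33+ MSC by 4.98 on the log2 scale (SE 0.24, adjusted p = 3.62e-06, limma), and Ackr3 by 1.62 (SE 0.20, adjusted p = 0.00104). Cxcl12 was lower in Il33+ WAT-MSC, differing by -1.86 on the log2 scale (SE 0.20, adjusted p = 0.000453), and so was Cxcl13, by -2.73 (SE 0.38, adjusted p = 0.00184). These 4 genes of the 10 tested passed, beside 6.00% of all genes (2.50% higher and 3.50% lower), and the same 4 were those without overlap, beside 23.1% of all genes. Ackr4 passed the filter on low values through the fat libraries alone and Cxcl13 through the lung stromal libraries alone, so Ackr4 could not be tested without any single library of Il33+ WAT-MSC, nor Cxcl13 without any of lung Il33+ MSC.

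Il33 itself had 0.06 on the log2 scale (SE 0.27, adjusted p = 0.945) between these populations. Cxcl1 and Ccl11 had log2 fold changes of 0.28 (95% interval -0.39 to 0.95) and 0.40 (95% interval -0.20 to 1.01). Ccl2 and Ccl7, at 1.44 and 0.97, missed the threshold (adjusted p = 0.128 and 0.145), and without replicate 3 of lung Il33+ MSC they passed it (adjusted p = 0.0464 and 0.0346). Markers of leukocytes and macrophages summed to 207 to 261 RPKM in lung Il33+ MSC and to 10.3 to 19.2 RPKM in Il33+ WAT-MSC. Lyz2, one of them, had means of 127 and 3.45 RPKM. In lung epithelial cells these markers summed to 774 to 1437 RPKM, with Lyz2 at a mean of 1006 RPKM. Mesothelial markers summed to 5.03 to 8.29 RPKM in lung Il33+ MSC and to 39.3 to 127 RPKM in Il33+ WAT-MSC. The part of either list in these differences was not tested.

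Against WAT endothelial cells, which were also rich in these transcripts, Ccl11 was higher in both stromal populations of fat. Its log2 fold change was 1.66 in Il33+ WAT-MSC (SE 0.36, adjusted p = 0.0398, limma) and 2.74 in Il33- WAT-MSC (SE 0.37, adjusted p = 0.00294). Cxcl14 was higher in Il33- WAT-MSC by 3.57 (SE 0.73, adjusted p = 0.0225). These comparisons share their endothelial libraries, as the first 3 comparisons share those of Il33+ WAT-MSC.

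Of 9 genes tested, 1 passed for Il33+ WAT-MSC, beside 3.90% of all genes (0.565% higher and 3.34% lower), and 2 passed for Il33- WAT-MSC, beside 5.69% (1.60% higher and 4.10% lower). Libraries did not overlap for 5 of 9 genes in each, beside 23.2 and 23.8% of all genes. Over these 9 genes the median log2 fold change was 1.19 for Il33+ WAT-MSC and 0.85 for Il33- WAT-MSC, where all genes tested had medians of 0.18 and 0.17. The call of Ccl11 for Il33+ WAT-MSC was lost without any single library other than replicate 3 of the endothelial cells (adjusted p from 0.0707 to 0.183), and that of Cxcl14 without any single replicate of Il33- WAT-MSC or replicate 2 of the endothelial cells (adjusted p from 0.0505 to 0.112). With a pseudocount of 0.1 or no filter the first was also lost (0.0568 and 0.0988), and so was the second (0.0966 and 0.086).

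Stromal marker transcripts were present in the endothelial libraries at a median of 40.1% of their mean in Il33+ WAT-MSC, with Lum lowest at 33.5% and Pdgfrb highest at 90.8%. On the same scale Ccl2 was at 38.9%, Ccl7 at 43.6%, Cxcl1 at 42.4% and Ccl11 at 31.6%. Ackr3 at 56.4%, Cxcl16 at 67.2% and Ackr4 at 68.2% lay above that median, and Cxcl12 was at 238%. Markers of pericytes and smooth muscle summed to 185 to 269 RPKM in the endothelial libraries and to 13.1 to 21.8 RPKM in Il33+ WAT-MSC. The part of either set of transcripts in the endothelial levels was not tested.

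**Figure D3:**
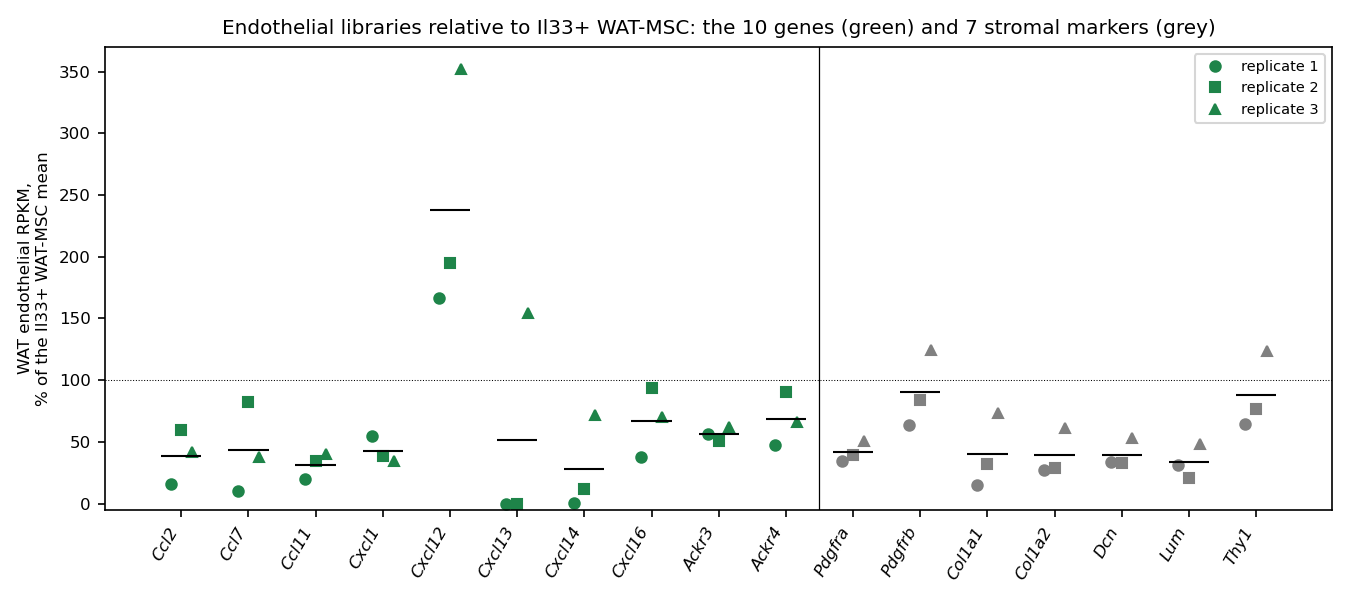
RPKM in each of the 3 WAT endothelial libraries as a percent of the mean of Il33+ WAT-MSC (vertical axis, linear), for the 10 genes in green and 7 stromal markers in grey, with a bar for the mean. Ccl2, Ccl7, Ccl11 and Cxcl1 have means of 31.6 to 43.6%, beside 33.5 to 90.8% for the stromal markers, and Cxcl12 is at 166 to 352%.

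Cxcl12 was the gene for which the sum over transcripts hid a difference. As a sum it was lower in WAT-MSC than in endothelial cells, with log2 fold changes of -1.16 for Il33+ WAT-MSC (SE 0.34, adjusted p = 0.125) and -1.47 for Il33- WAT-MSC (SE 0.38, adjusted p = 0.0566), neither of which passed. It did pass with median-ratio scaling (adjusted p = 0.0354 and 0.00609, limma) and all 15 libraries in 1 fit (0.0242 and 0.00357). For Il33- WAT-MSC it also passed with the replicate block (0.0162), lane as a covariate (0.0292) or a filter of 5 RPKM (0.0493). Without endothelial replicate 1 it passed there as well (0.0367). NM_013655, the beta form, was at 33.0, 28.3 and 49.8 RPKM in endothelial cells, against 1.47, 2.67 and 2.27 RPKM in citrine+ and 0.59, 2.23 and 1.30 RPKM in citrine- stroma. NM_021704, the alpha form, was at 3.25, 2.89 and 16.4 RPKM in endothelial cells, against 17.5, 24.2 and 15.9 RPKM in citrine+ and 10.9, 18.1 and 19.7 RPKM in citrine- stroma. For the beta form all endothelial libraries lay above all stromal ones, and for the alpha form only endothelial replicate 3 reached the WAT-MSC range.

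In a fit over all transcripts, added after the values had been seen, the beta form was lower in Il33+ WAT-MSC, with a difference of -3.58 on the log2 scale (SE 0.35, adjusted p = 0.00174, limma) and in Il33- WAT-MSC, with -4.02 (SE 0.40, adjusted p = 0.00149). The transcripts that passed in those fits made up 3.56 and 5.23% of those tested. The alpha form had log2 fold changes of 1.59 (adjusted p = 0.224) and 1.34 (adjusted p = 0.297), in the other direction and not past the threshold.

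The alpha form made up 86.1 to 94.4% of the summed Cxcl12 RPKM in the 6 WAT-MSC libraries and 87.7 to 88.8% in lung Il33+ MSC, but 6.78 to 21.3% in endothelial cells, where the beta form held 64.6 to 90.6%. Both forms were lower in Il33+ WAT-MSC than in lung Il33+ MSC, with log2 fold changes of -1.86 (adjusted p = 0.00144) and -1.64 (adjusted p = 0.0068), where 4.91% of all transcripts passed. Against lung epithelial cells both were higher in lung Il33+ MSC, by 5.09 (adjusted p = 2.52e-06) and 1.98 (adjusted p = 0.00845), where 42.1% of all transcripts passed. The gamma form NM_001012477 was at 0.16, 11.5 and 10.8 RPKM in the endothelial libraries and at no more than 1.58 RPKM elsewhere. For the 2 Ackr3 transcripts no such exchange was seen, since NM_007722 held 85.8 to 100% of the sum in all 15 libraries.

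**Figure D4:**
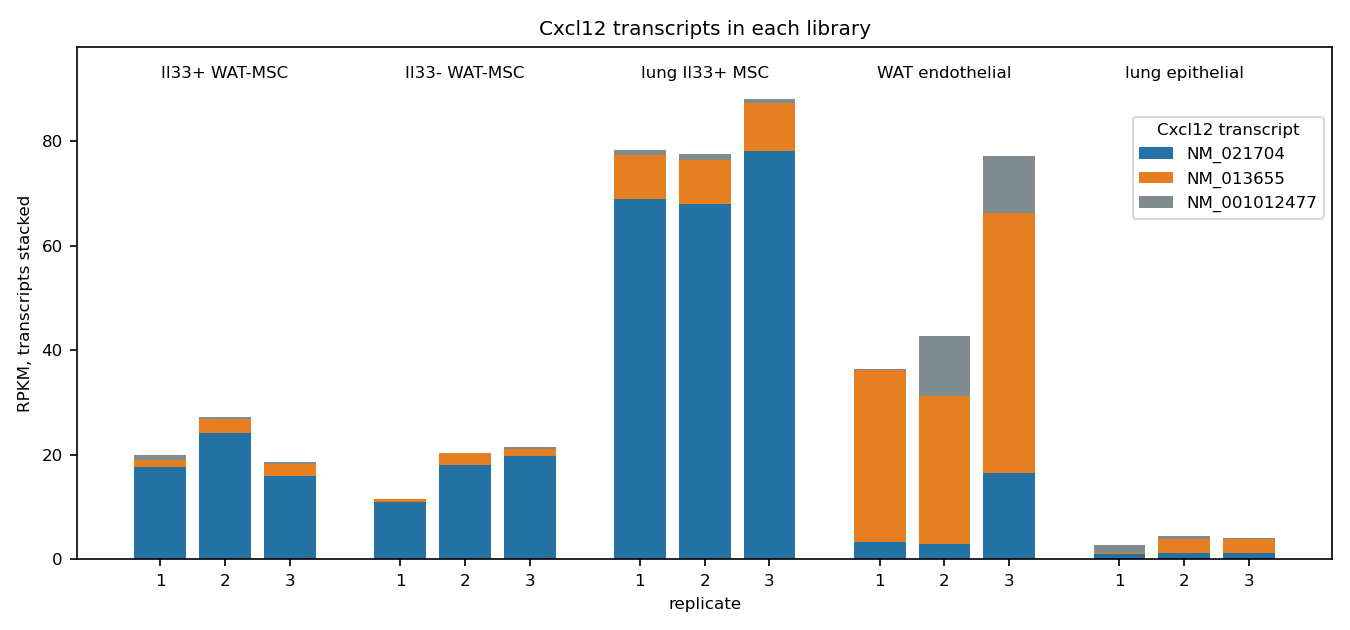
RPKM of the 3 listed Cxcl12 transcripts (vertical axis, linear, stacked) in each of the 15 libraries, grouped by population. NM_021704 makes up 86.1 to 94.4% of the bars of the WAT-MSC libraries and NM_013655 makes up 64.6 to 90.6% of the endothelial bars.

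Between the lung populations sequenced, the stromal one had the higher mean for each of these genes but Ackr4. Of the 9 genes tested, 8 were higher in lung Il33+ MSC than in lung epithelial cells, all but Cxcl16, in a comparison where 24.4% of all genes were called higher and 43.0% were called in either direction. The log2 fold changes of those that passed ran from 2.31 for Cxcl14 (SE 0.36, adjusted p = 0.000673, limma) to 5.64 for Ccl11 (SE 0.30, adjusted p = 1.32e-06). Cxcl1 had a log2 fold change of 5.24, Ccl7 of 4.67, Ccl2 of 4.23, Ackr3 of 4.17, Cxcl12 of 4.14 and Cxcl13 of 2.71.

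Cxcl16 had 1.20 on the log2 scale (SE 0.57, adjusted p = 0.12) and was at 0.46, 5.60 and 6.19 RPKM in the epithelial libraries. Ackr4 was too low to be tested, with 2.70, 0.35 and 0.26 RPKM in epithelial cells. The median of the 9 genes was 4.17, beside 0.13 over all genes, and the libraries did not overlap for 9 of 9, beside 53.4% of all genes. Median-ratio scaling moved the median of all genes to -0.15, and the same 8 genes passed under it. The stromal markers in the epithelial libraries were at a median of 1.83% of their level in lung Il33+ MSC, Ccl11 was at 1.75%, Ccl7 at 1.90%, Cxcl1 at 2.53%, Ccl2 at 3.59%, Ackr3 at 4.27%, Cxcl12 at 4.56% and Cxcl14 at 14.9%, and the part of stromal RNA in these levels was not tested.

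Several of the 10 genes peaked in the same library of a population. Replicate 2 was the highest for 8 of the 10 in Il33+ WAT-MSC and replicate 3 for 9 of the 10 in lung Il33+ MSC. The share of all genes that peaked in these libraries was not counted. For Ccl2 and Ccl7 the highest library was replicate 2 in Il33+ WAT-MSC, Il33- WAT-MSC and WAT endothelial cells and replicate 3 in lung Il33+ MSC, so that they shared it in 4 of 5 populations. Ccl7 and Cxcl16 shared theirs in 5 of 5, and Ccl2 and Cxcl16, Cxcl1 and Ackr3, Cxcl12 and Cxcl13, and Cxcl12 and Ackr3 in 4 of 5. The highest library exceeded the lowest by 2.91-fold for Ccl2 in Il33+ WAT-MSC, 3.46-fold in Il33- WAT-MSC, 3.83-fold in endothelial cells and 3.38-fold in lung Il33+ MSC. For Ccl7 it was 1.86-fold, 4.41-fold, 8.03-fold and 2.21-fold in the same order, and for Cxcl1 at most 2.15-fold in all of these.

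In endothelial replicate 2 the leukocyte and macrophage markers summed to 186 RPKM, against 20.5 and 65.9 RPKM in replicates 1 and 3, and in replicate 2 of Il33- WAT-MSC to 50.9 RPKM against 37.9 and 18.6 RPKM. In Il33+ WAT-MSC they were at 10.3, 17.6 and 19.2 RPKM, where replicate 2 was not the highest. The immediate early genes, which rise within minutes of cell handling, summed to 10200, 7127 and 11040 RPKM in replicates 1, 2 and 3 of Il33+ WAT-MSC, and to 4818, 7115 and 10780 RPKM in the endothelial libraries, so replicate 2 had the highest sum in neither. The part of either list in the spread of Ccl2 and Ccl7 was not tested.

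**Figure D5:**
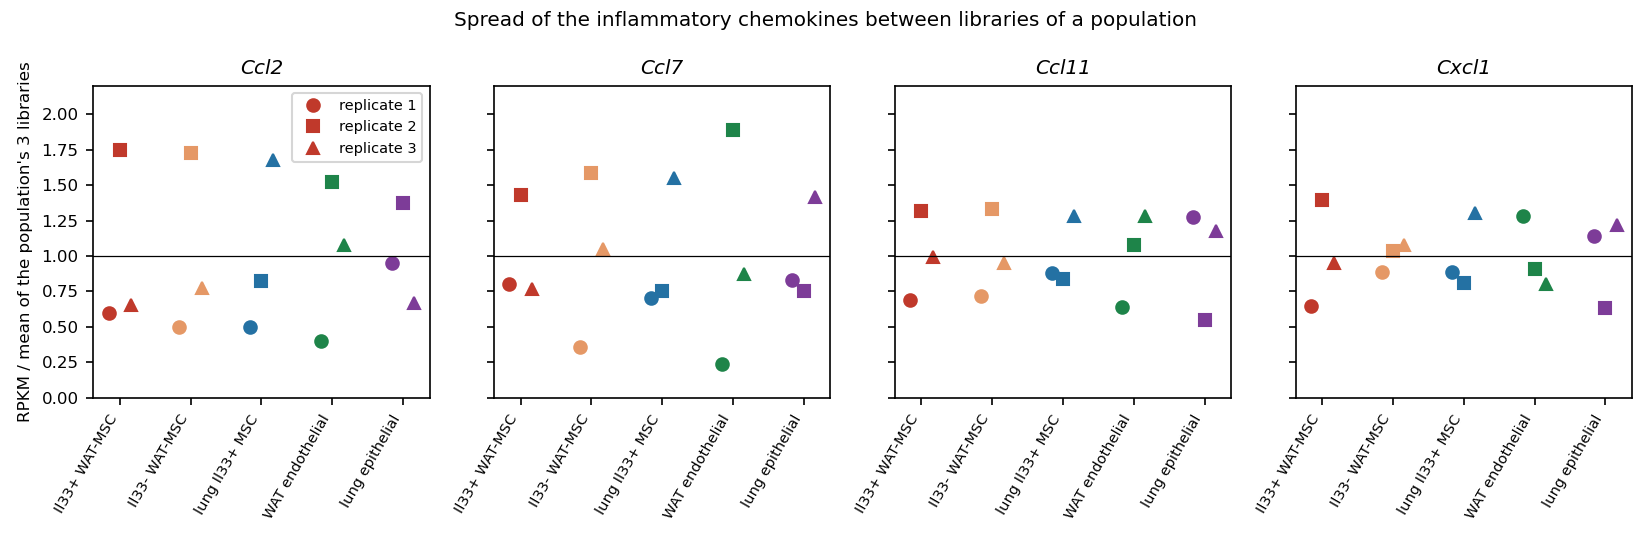
RPKM of Ccl2, Ccl7, Ccl11 and Cxcl1 in each library divided by the mean of its population (vertical axis, linear), with a marker shape for each replicate number. Replicate 2 is the highest library for Ccl2 and Ccl7 in the 3 WAT populations, and replicate 3 in lung Il33+ MSC.

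The genes whose pattern over the 15 libraries was most like that of each gene were named from 9980 other genes by Pearson's r of log2(RPKM + 1). As the libraries fall into 5 populations, r mostly follows the population means, and it is given as a description. Ccl2 was nearest to Ccl7 (r = 0.979), Lrrn4cl (r = 0.971) and Rbms1 (r = 0.964), and Ccl7 to Ccl2, Fn1 (r = 0.970) and Zfpm2 (r = 0.969). Ccl11 was nearest to Lama2, Ecm2 (both r = 0.990) and Svep1 (r = 0.986), and Cxcl1 to Dcn (r = 0.989), Ccnl1 and Vcan (both r = 0.986). Lama2, Ecm2, Svep1, Fn1, Dcn and Vcan encode matrix proteins.

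For the homeostatic ligands the nearest genes were less close. Cxcl12 had 9430020K01Rik (r = 0.964), Cyr61 (r = 0.952) and Diaph2 (r = 0.944), and Cxcl13 had Adcy2 (r = 0.965), Cldn2 (r = 0.946) and Brinp1 (r = 0.944), all low outside lung Il33+ MSC. Cxcl14 had Arcn1 (r = 0.929), Copb1 (r = 0.927) and Fads1 (r = 0.919), and Cxcl16 had Impdh2 (r = 0.928), Rybp (r = 0.912) and Mpp5 (r = 0.902). Ackr3 was nearest to Fbln5 (r = 0.983), Sulf1 (r = 0.977) and Cilp (r = 0.972), and Ackr4 to Hoxc8 (r = 0.978), Hoxc6 (r = 0.905) and Ebf3 (r = 0.899). Hoxc8, a positional transcription factor, had means of 15.7, 10.8 and 11.3 RPKM in Il33+ WAT-MSC, Il33- WAT-MSC and WAT endothelial cells and of 0.117 and 0.15 RPKM in lung Il33+ MSC and lung epithelial cells.

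Of 33 other mouse chemokine genes listed, 20 were found, and 10 of those reached a mean of 10 RPKM in some population. Cxcl10, an interferon-induced ligand of Cxcr3, had means of 71.1, 70.1, 57.4 and 46.8 RPKM in Il33+ WAT-MSC, Il33- WAT-MSC, lung Il33+ MSC and WAT endothelial cells and of 3.91 RPKM in lung epithelial cells. Cxcl2, a neutrophil attractant like Cxcl1, had means of 30.4, 17.8, 28.4, 23.2 and 8.75 RPKM in the same order, and Cxcl9 of 3.73, 13.6, 2.48, 17.1 and 0.107 RPKM. Between Il33+ and Il33- WAT-MSC, 0 of the 7 others tested passed in limma, beside 1.57% of all genes, and 2 did not overlap, beside 17.5%. These 2 were Cxcl9, with a log2 fold change of -1.59 (adjusted p = 0.0567), and Ccl8, with 1.71 (adjusted p = 0.197). At an unadjusted p under 0.05 both would have been called.

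Between the Il33+ cells of fat and of lung, 5 of 10 others were lower in the WAT cells, beside 3.50% of all genes, and 0 were higher, beside 2.50%. Ccl19, which attracts cells that carry Ccr7, had a log2 fold change of -2.55 (adjusted p = 0.00293, limma), Ccl6 of -3.05 (adjusted p = 0.000311), Cxcl15 of -2.38 (adjusted p = 0.004), Ccl8 of -1.71 (adjusted p = 0.0415) and Ccl3 of -1.52 (adjusted p = 0.0162). Of these 5, Ccl6, Cxcl15 and Ccl3 passed the filter on low values through the lung stromal libraries alone. They could therefore not be tested without any single library of lung Il33+ MSC, nor Cxcl15 and Ccl3 with a filter of 5 RPKM. Ccl19 was listed in 2 rows with the same values, which were added, and its reads may be shared with near-identical copies, so its level is uncertain. Epithelial markers summed to 181 to 544 RPKM in lung Il33+ MSC and to 73.1 to 144 RPKM in Il33+ WAT-MSC, and the leukocyte and macrophage markers to 207 to 261 and 10.3 to 19.2 RPKM, and their part in the differences of Cxcl15, Ccl6 and Ccl3 was not tested. The call of Ccl8 was lost without replicate 1 or 3 of Il33+ WAT-MSC or without any single replicate of lung Il33+ MSC (adjusted p from 0.0795 to 0.168), and also with lane as a covariate, all 15 libraries in 1 fit, a pseudocount of 0.1, no filter or the most abundant transcript (0.0532 to 0.302). That of Ccl3 was lost with all 15 libraries (0.25) and without replicate 1 or 3 of Il33+ WAT-MSC (0.0541 and 0.0619).

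Against WAT endothelial cells, 4 of 12 others were lower in Il33+ WAT-MSC and 3 of 12 were lower in Il33- WAT-MSC, beside 3.34 and 4.10% of all genes, and 0 were higher in either, beside 0.565 and 1.60%. Ccl21a, a Ccr7 ligand of lymphatic endothelium that Ackr4 takes up, had log2 fold changes of -4.78 (adjusted p = 0.00172, limma) and -4.15 (adjusted p = 0.00187) and means of 56.0 RPKM in endothelial cells, 0.887 RPKM in citrine+ and 1.85 RPKM in citrine- stroma. Ccl21a and Ccl21b are near-identical copies listed in 2 and 6 rows that repeat the same transcripts. These rows were added, so the levels given may be too high, and the separate levels of the copies are uncertain. Ccl21b, at 6.56, 9.30 and 63.3 RPKM in endothelial cells, had log2 fold changes of -3.49 and -3.60 (adjusted p = 0.0497 and 0.0259). Ccl5, a T cell attractant, passed in both and had a mean of 3.63 RPKM in endothelial cells, 0.247 RPKM in citrine- stroma and was listed at 0 in every library of citrine+ stroma. Cx3cl1, a membrane-bound ligand of Cx3cr1, was at a mean of 8.15 RPKM in endothelial cells and 0.303 RPKM in Il33+ WAT-MSC, where it passed (-2.62, adjusted p = 0.0337). The calls of Ccl21a held in all 14 settings in which they were tested. Those of Ccl21b, Ccl5 and Cx3cl1 were lost without some single libraries. For Ccl5 these were each replicate of Il33+ WAT-MSC (adjusted p from 0.0825 to 0.112) and each of Il33- WAT-MSC (0.0799 to 0.192), and for Cx3cl1 each of Il33+ WAT-MSC (0.11 to 0.162). For Ccl21b they were each replicate of either WAT-MSC population, endothelial replicate 2 in both comparisons and endothelial replicate 3 in the first (0.0513 to 0.229). Ccl5 in both comparisons and Cx3cl1 against Il33+ WAT-MSC passed the filter on low values through the endothelial libraries alone. There they could not be tested without any single endothelial library or with a filter of 5 RPKM. A pseudocount of 0.1 or no filter ended the call of Cx3cl1 (0.0581 and 0.09), and the pseudocount that of Ccl5 for Il33- WAT-MSC (0.0888). The calls of Ccl21b were lost without a filter and with the most abundant transcript in both comparisons, and in the first also with the pseudocount or a filter of 5 RPKM (0.0511 to 0.204). The lymphatic markers summed to 100 to 199 RPKM in the endothelial libraries and to 1.12 to 6.89 RPKM in Il33+ WAT-MSC. In Il33- WAT-MSC they summed to 17.4, 19.0 and 3.35 RPKM.

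In the lung, Cxcl15 and Cxcl17 were epithelial, with means of 308 and 76.0 RPKM in epithelial cells against 6.84 and 0.127 RPKM in lung Il33+ MSC and log2 fold changes of -5.34 (adjusted p = 5.69e-06, limma) and -6.05 (adjusted p = 1.04e-06). Cxcl10 (3.44), Cxcl2 (1.65), Ccl8 (3.24) and Ccl19 (4.05) were higher in lung Il33+ MSC, and Ccl21a (-1.23), Ccl22 (-1.51) and Cx3cl1 (-1.58) were lower, all as log2 fold changes. Cxcl17 and Ccl21a passed the filter here through the epithelial libraries alone, so they could not be tested without any single epithelial library. The call of Ccl22 was lost without replicate 1 or 2 of lung Il33+ MSC or replicate 1 or 3 of the epithelial cells (adjusted p from 0.0709 to 0.12), and with a pseudocount of 0.1 or no filter (0.0593 and 0.057). In all, 9 of 16 others tested passed, 4 higher and 5 lower, beside 43.0% of all genes.

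Of 4 other atypical receptors, all were found. Ackr1 was higher in Il33+ WAT-MSC than in lung Il33+ MSC by a log2 fold change of 2.10 (adjusted p = 0.00106, limma) and lower in Il33- WAT-MSC than in endothelial cells, with -1.78 (adjusted p = 0.0296). The latter call was lost without the filter (adjusted p = 0.0639), without replicate 1 or 2 of Il33- WAT-MSC or replicate 2 or 3 of the endothelial cells (adjusted p from 0.0528 to 0.134). Between Il33+ WAT-MSC and endothelial cells Ackr1 did not pass, with means of 42.2 and 35.6 RPKM. Gpr182, known from endothelium, had a mean of 22.0 RPKM in WAT endothelial cells and was lower in Il33+ WAT-MSC (log2 fold change -4.24, adjusted p = 0.00179) and in Il33- WAT-MSC (-2.86, adjusted p = 0.0146). Against Il33+ WAT-MSC, Gpr182 passed the filter through the endothelial libraries alone, so there it could not be tested without any single one of them. The call of Gpr182 for Il33- WAT-MSC was lost without replicate 1 or 3 of those cells (adjusted p = 0.0761 and 0.0537) or without the filter (0.0525). In the lung, Ackr1 (3.02, adjusted p = 4.57e-05) and Ackr2 (1.08, adjusted p = 0.032) were higher in lung Il33+ MSC. Ackr1 passed the filter there through the stromal libraries alone and could not be tested without any single one of them. The call of Ackr2 was lost without replicate 2 or 3 of lung Il33+ MSC or replicate 1 or 3 of the epithelial cells (0.0683 to 0.14), with all 15 libraries (0.0642) and with median-ratio scaling (0.0607). Of those tested, 1 of 2, 1 of 3, 1 of 4, 2 of 3 and 2 of 4 passed in the 5 comparisons in their order. Of all genes tested, 1.57, 6.00, 3.90, 5.69 and 43.0% passed in the same order. Ackr2 stayed below 5 RPKM, and Ccrl2 had means of 4.18 to 6.07 RPKM.

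Of 18 conventional chemokine receptors listed, 2 were found, Ccr1 and Cxcr4, with means of at most 2.70 RPKM, and 0 of the 1 tested passed in each of 3 comparisons. In the other 2, neither was tested. The receptor of Cxcl12, Cxcr4, was at 0, 1.18 and 0 RPKM in Il33+ WAT-MSC and at 0.19, 4.09 and 3.82 RPKM in WAT endothelial cells. Of 8 genes for proteases that trim or shed chemokines, 7 were found and tested in all 5 comparisons, in which 1, 1, 2, 2 and 5 passed. The shares of all genes that passed were 1.57, 6.00, 3.90, 5.69 and 43.0% in that order. Mmp3, a secreted metalloprotease known to cleave Ccl2 and Ccl7, was at 24.3, 15.04 and 23.9 RPKM in the Il33+ cells of fat, at 0.49, 3.16 and 1.63 RPKM in the Il33- cells and at 103, 113 and 109 RPKM in lung Il33+ MSC. It was higher in Il33+ than in Il33- WAT-MSC by 3.09 on the log2 scale (SE 0.39, adjusted p = 0.00382, limma) and lower than in lung Il33+ MSC, with -2.34 (SE 0.22, adjusted p = 0.000202). Mmp2, which also cleaves Cxcl12, was higher than in endothelial cells by 1.52 in Il33+ WAT-MSC (adjusted p = 0.0101) and by 1.87 in Il33- WAT-MSC (adjusted p = 0.00745), and Mmp14 passed in the same 2 comparisons (1.21, adjusted p = 0.0299, and 1.58, adjusted p = 0.00745). The call of Mmp3 between Il33+ and Il33- WAT-MSC was lost without the filter (adjusted p = 0.0698). The call of Mmp2 was lost without replicate 1 or 3 of Il33+ WAT-MSC (adjusted p = 0.0634 and 0.0714) and without endothelial replicate 2 in either comparison (adjusted p = 0.0904 and 0.0546). That of Mmp14 was lost without any single replicate of Il33+ WAT-MSC or endothelial replicate 2 in the first comparison (adjusted p from 0.127 to 0.178) or with median-ratio scaling (0.073), and without replicate 2 or 3 of Il33- WAT-MSC or endothelial replicate 2 in the second (0.0544 to 0.0592). In the lung, Mmp2, Mmp3, Mmp14, Anpep and Adam17 were higher in lung Il33+ MSC, by 4.76, 5.66, 3.67, 2.41 and 1.41 (log2 scale). Anpep, an aminopeptidase, had means of 102 RPKM there and 18.7 RPKM in epithelial cells, and Adam17, a sheddase, of 14.4 and 4.90 RPKM. The call of Adam17 was lost with its most abundant transcript alone (adjusted p = 0.362).

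The libraries were sequenced in 2 lanes. For the 10 genes, the libraries of each difference that passed did not overlap. Its sign within each lane was therefore fixed beforehand and does not test the lane, and only the sizes are given. Ackr3 differed between Il33+ and Il33- WAT-MSC by 1.48 in lane 1 and 1.34 in lane 2 (log2 scale), and Ackr4 between citrine+ stroma of fat and of lung by 4.85 and 5.06. Replicate 3 was the only WAT library of each population in lane 2, so there the lane cannot be told apart from the replicate.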

How the data were processed

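RNA of 5 sorted populations, 3 libraries each, was amplified and sequenced. The authors aligned reads with TopHat2 in Partek Flow (mm10, per the labels) and deposited RPKM per RefSeq transcript to 2 decimals. A filter on low transcripts is not described, and only 41 of 12698 transcripts stayed under 1 RPKM in every library. A few abundant transcripts lower the RPKM of all others in a library.

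RPKM was summed per symbol and fitted with limma 3.58.1 (R 4.3.3, lmFit, then eBayes with trend set) after log2(RPKM + 1), keeping genes that reached 1 RPKM in 3 or more of the 6 libraries of a comparison, and p-values were adjusted by Benjamini-Hochberg and called under 0.05. The added 1 understates changes of low genes. The fit was tested on simulated data. An exact permutation test of 3 against 3 cannot go below 0.1. Other steps used Python 3.11.15.

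The genes and lists were chosen with earlier results of these data known. All 10 genes are given in every library. Of the chemokine, receptor and protease lists, counts are given, with values for most genes that passed or reached a mean of 10 RPKM, and the 3 genes nearest in pattern are named for each of the 10. Samples were grouped by their labels. Read counts were not used here, so errors are the spread of libraries. Alternatives were a replicate block, lane as a covariate, all 15 libraries in 1 fit, median-ratio scaling, a pseudocount of 0.1, no filter, a filter of 5 RPKM, the most abundant transcript, and each library left out. The transcript fit was added after the data were seen.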

Additional observations from a re-analysis of the deposited data

How the results depend on the processing

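The 4 calls between fat and lung stroma, the 8 in the lung and that of Ccl11 in Il33- WAT-MSC against endothelial cells held in the settings in which each was tested, but Ackr4 was not tested between fat and lung stroma without any library of Il33+ WAT-MSC, nor Cxcl13 without any of lung Il33+ MSC or with the 5 RPKM filter. The rest depended on the setting, and where no value shows why, the cause was not tested. Between Il33+ and Il33- WAT-MSC, 133 genes passed, against 20 without the filter (which tests more genes), and of the 10 genes 1 passed, against 0 without the filter and 2 with median-ratio scaling. All 15 libraries in 1 fit gave 336 genes in place of 513 against lung Il33+ MSC, 805 in place of 338 for Il33+ WAT-MSC against endothelial cells (4 of the 10 genes in place of 1) and 1030 in place of 496 for Il33- WAT-MSC. Against endothelial cells, of the 10 genes, 2 passed for Il33+ WAT-MSC with median-ratio scaling and 0 with a pseudocount of 0.1 or no filter, and for Il33- WAT-MSC 1 passed with either of the last settings. With its most abundant transcript alone, Cxcl12 turned to 1.59 and 1.34 (log2 scale) in these comparisons.

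The replicate numbers were not treated as pairs, since the correlation of same-numbered libraries ran from -0.067 to 0.155 and no comparison had all 3 over 0.1. These low values do not show that same-numbered libraries were independent. With the replicate block, 232 genes passed between Il33+ and Il33- WAT-MSC, 3 of them among the 10 genes, with Ccl11 and Cxcl14 gained (adjusted p = 0.0118 and 0.049, limma). Of the 10 genes 2 and 4 passed for Il33+ and Il33- WAT-MSC against endothelial cells, with Ccl2 (0.0495) gained in the first, where Mmp14 was lost (0.0553), and Ccl7 and Cxcl12 (0.0188 and 0.0162) in the second. Cxcl16 passed in the lung (0.0416). In 3 of the 5 comparisons every library correlated best with its own number.

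With each library left out in turn, the genes passing ranged from 49 to 121 between Il33+ and Il33- WAT-MSC, from 191 to 447 against lung Il33+ MSC, from 56 to 261 for Il33+ WAT-MSC against endothelial cells (0 to 2 of the 10 genes) and from 140 to 414 for Il33- WAT-MSC (1 to 3 of the 10 genes), with the fewest in each of the latter without endothelial replicate 2. Counts fell by over 1.5 times without any single library but Il33- WAT-MSC replicate 1 in the first, any lung Il33+ MSC library in the second, and any WAT-MSC library or endothelial replicate 2 in the others. Log2 fold changes that changed sign were those of Ccl7 (-0.40 to 0.65) and Cxcl1 (-0.026 to 0.53) between Il33+ and Il33- WAT-MSC, and of Cxcl16 against lung Il33+ MSC (-0.15 to 0.31) and in Il33- WAT-MSC against endothelial cells (-0.58 to 0.19), none of which had passed.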

Other observations

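Endothelial replicate 2 held chemokines that the other endothelial libraries had at lower levels. Ccl3 was at 24.2 RPKM there against 3.6 and 2.43 RPKM, Ccl9 at 11.6 against 0.21 and 1.57 RPKM, Ccl6 at 9.27 against 0.15 and 0.55 RPKM and Pf4, a platelet chemokine, at 6.58 against 0.11 and 0.65 RPKM. Ccl4 was at 20.0 RPKM in endothelial replicate 1 and at 2.65 and 0.75 RPKM in replicates 2 and 3. These values were picked out after they had been seen. Lyz2, a gene of myeloid cells, was at 94.8 RPKM in replicate 2 and at 7.59 and 39.5 RPKM in replicates 1 and 3. It also had a mean of 1006 RPKM in lung epithelial cells.

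Ppbp, another platelet chemokine, was at 6.18 RPKM in endothelial replicate 2 and 5.58 RPKM in epithelial replicate 2, and at 1.95 RPKM or less in the other libraries.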
